A study of Mus musculus with 6 samples.

Results

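The nuclear genes for the subunits of respiratory complex I were followed in the hearts of mouse pups that did or did not express a dominant negative thyroid hormone receptor in their heart muscle cells. The set held 36 genes, taken by symbol from a list of nuclear complex I subunits after the Ensembl identifiers of the count tables had been matched to GENCODE release M21, and all 36 were among the 20121 genes listed. Ndufa4 was kept in the set, although its protein was first assigned to complex I and later found to belong to cytochrome c oxidase. Of the listed genes, 14877 passed the filter on low counts, all 36 members among them, each with 342 to 42903 counts in a heart.

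Whole hearts were taken at postnatal day 14 from pups on a mixed ICR and C57BL/6 background, and their total RNA was sequenced. Both groups carried the TRalphaAMI allele, from which Cre recombinase switches on the altered receptor. Control pups (n = 3) had the allele alone. Their mutant littermates (n = 3) had Myh6-Cre as well, a recombinase driven by a promoter of heart muscle cells. No group carried Cre alone, so effects of Cre and of the receptor cannot be told apart.

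Complex I, or NADH:ubiquinone oxidoreductase, is the entry point of electrons from NADH into the respiratory chain of mitochondria. Its N module takes electrons from NADH, its Q module hands them to ubiquinone, and its membrane arm uses the energy to pump protons out of the matrix. The core subunits do this chemistry, the accessory subunits surround and stabilise them, and the membrane arm is built around subunits encoded by mitochondrial DNA. Heart muscle depends on this chain for most of its ATP, and its mitochondria expand after birth, when thyroid hormone levels are high.

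The labels could be checked against the expression of the receptor gene and of known targets. Thra, which encodes the receptor, was 76.7 ± 8.54 CPM (counts scaled to library size, SD, n = 3) in control and 136.5 ± 10.4 in mutant hearts, a 1.78-fold rise. Myh6, the adult myosin heavy chain gene that thyroid hormone activates, fell 9.73-fold, and Myh7, its fetal counterpart, rose 56.7-fold. The libraries held 43314706 to 62095277 counts, the groups separated along a first principal component with 73.9% of the variance, and the correlation of log2 CPM between hearts was 0.992 to 0.995 within groups and 0.970 to 0.974 across them.

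To place the genes on their control regions before their values are given, promoter windows were taken from RefSeq (GRCm38.p6, the assembly also called mm10), which had an entry for 33 of the 36 members. The windows of 4 members are shown, each read 5′ to 3′ on the strand of the gene from 250 bases before its start to 30 bases after it, in lower case with the matches to a searched motif in capitals. Ndufa1 (chrX:37191209-37191488, minus strand) had the deepest fall of the set, and its capitals mark a GC box, the GGGCGG site of SP1-type factors, read from the opposite strand. Ndufs6 (chr13:73328453-73328732, minus strand) carries the core of the site for NRF1, a factor known for activating genes of the respiratory chain, 16 bases before its start. Ndufv3 (chr17:31519865-31520144, plus strand) shares its window with the gene Wdr4, which runs the other way, and its capitals mark GC boxes. Ndufab1 (chr7:122101819-122102098, minus strand) had the smallest fall, and its capitals mark a GC box on the opposite strand.
Ndufa1: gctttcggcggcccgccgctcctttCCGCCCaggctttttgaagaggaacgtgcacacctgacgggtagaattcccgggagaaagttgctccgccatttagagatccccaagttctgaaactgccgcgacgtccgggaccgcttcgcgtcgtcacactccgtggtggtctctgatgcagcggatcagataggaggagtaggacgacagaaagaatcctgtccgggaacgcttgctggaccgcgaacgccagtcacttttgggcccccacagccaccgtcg
Ndufs6: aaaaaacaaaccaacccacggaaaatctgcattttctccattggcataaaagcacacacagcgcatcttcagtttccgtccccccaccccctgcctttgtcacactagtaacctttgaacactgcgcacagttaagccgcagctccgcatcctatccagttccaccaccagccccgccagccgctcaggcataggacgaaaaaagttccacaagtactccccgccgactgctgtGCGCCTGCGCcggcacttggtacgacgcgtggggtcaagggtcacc
Ndufv3: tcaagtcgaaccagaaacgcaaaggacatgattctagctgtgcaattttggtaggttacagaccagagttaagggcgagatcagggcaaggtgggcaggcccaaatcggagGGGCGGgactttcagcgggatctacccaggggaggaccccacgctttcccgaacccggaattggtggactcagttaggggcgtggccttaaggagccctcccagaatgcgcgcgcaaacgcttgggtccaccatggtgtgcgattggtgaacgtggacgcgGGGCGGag
Ndufab1: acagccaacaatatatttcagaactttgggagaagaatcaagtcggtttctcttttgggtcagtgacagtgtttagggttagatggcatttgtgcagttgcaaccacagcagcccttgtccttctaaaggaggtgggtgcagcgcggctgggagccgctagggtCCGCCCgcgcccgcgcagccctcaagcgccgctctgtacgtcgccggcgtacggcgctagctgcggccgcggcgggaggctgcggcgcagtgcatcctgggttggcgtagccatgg

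All 36 members were lower in mutant than in control hearts by edgeR's quasi-likelihood test at a Benjamini-Hochberg adjusted p under 0.05, and none was higher. Over all genes tested, 19.5% were called lower and 18.1% higher. The median log2 fold change of the members was -0.70, a 1.62-fold fall, with a range from -1.14 to -0.22, whereas the median over all genes tested was -0.00 with quartiles of -0.23 and 0.23. A fall of at least 1.5-fold was seen in 25 members, against 7.64% of all genes, and a fall of at least 2-fold in 4 members (Ndufa1, Ndufs8, Ndufa5 and Ndufs4), against 3.04% of all genes. In each of the 36 genes every mutant heart lay below every control heart, which held for 25.4% of all genes.

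Added up, the 36 genes gave 8949, 9642 and 9305 CPM in the control hearts and 5827, 5340 and 5881 CPM in the mutant hearts. As a share of all counts, with no scaling between libraries, they made up 0.810%, 0.875% and 0.842% of the control libraries and 0.630%, 0.591% and 0.661% of the mutant libraries. The groups did not overlap on either measure. These are values of whole hearts, in which fewer cells of a type and less RNA per cell cannot be told apart. The size of the fall depended on the scaling: with library totals alone the members' median was -0.41 and that of all genes 0.28, 33 of 36 members were called lower against 8.11% of all genes, and 50.3% of all genes were called higher. On the log2(RPKM + 0.1) scale without a filter, limma called 33 of 36 members lower, against 5.9% of all genes, and 34.5% of all genes higher.

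**Figure D1:**
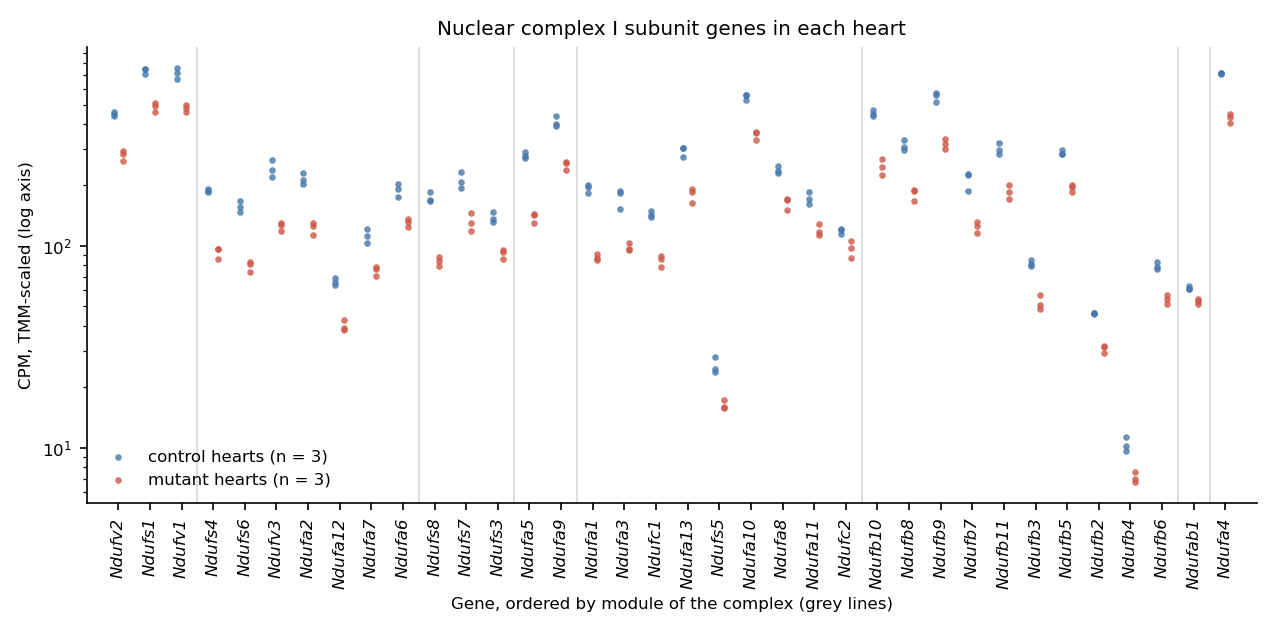
Normalised expression of the 36 genes in each heart, as CPM on a log axis, with 3 control and 3 mutant hearts as points and genes ordered by module. In every gene the 3 mutant points lie below the 3 control points, closest together for Ndufab1 and Ndufc2.

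The N module, which oxidises NADH, was represented by 10 genes with a median log2 fold change of -0.70. Its 3 core genes fell by similar amounts. Ndufv1, the subunit that binds NADH and the flavin, was at 669.3, 761.4 and 719 CPM in control and 479.4, 461.8 and 498.2 CPM in mutant hearts, a log2 fold change of -0.58 ± 0.07 (SE, adjusted p = 1.61e-04). Ndufv2, which holds an iron-sulfur cluster beside the flavin, was at 458.5, 437.5 and 448.8 CPM against 293, 261.5 and 286.2 CPM (-0.68 ± 0.06, adjusted p = 4.18e-05). Ndufs1, the largest subunit of the complex, went from 738.2 ± 22.4 to 488.6 ± 25.1 CPM (-0.60).

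The 7 accessory genes of the N module ranged from -1.01 to -0.54, with a median of -0.81. Ndufs4, whose loss in mice and people causes a Leigh-like disease and which holds the N module in place, was at 190.6, 185.1 and 187.4 CPM in control and 96.6, 86.1 and 96.7 CPM in mutant hearts, a 2.02-fold fall (log2 -1.01 ± 0.06, adjusted p = 3.63e-06). Ndufs6, a zinc-binding subunit, was at 146.5, 167.3 and 156.2 CPM in control hearts and at 80.7, 74.2 and 83.4 CPM in mutant hearts (log2 -0.98, adjusted p = 8.31e-06). Its lowest control heart was still well above its highest mutant heart. Ndufv3, a small subunit at the tip of the matrix arm, was at 219.1, 265.1 and 237.2 CPM in control and 130, 117.9 and 126.4 CPM in mutant hearts (log2 -0.95, adjusted p = 1.93e-05). Ndufa6, which anchors an acyl carrier protein to the matrix arm, had the smallest change of the 7, from 174.8, 201.5 and 190.9 to 135, 124.3 and 131.1 CPM (log2 -0.54, adjusted p = 2.60e-04). Between these lay Ndufa2 (-0.81), Ndufa12 (-0.73) and Ndufa7 (-0.57).

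The Q module, where ubiquinone is reduced, was represented by 5 genes with a median of -0.71. Ndufs8, which carries iron-sulfur clusters on the path to ubiquinone, was at 168.9, 184.3 and 166.3 CPM in control and 84.2, 79.2 and 88.3 CPM in mutant hearts, a 2.06-fold fall (log2 -1.05 ± 0.07, adjusted p = 4.04e-06). The other core genes fell less. Ndufs7, the subunit with the last iron-sulfur cluster before ubiquinone, was at 210.8 ± 19.2 and 130.5 ± 13.6 CPM (log2 -0.69). Ndufs3 was at 131.4, 146.3 and 134.9 CPM against 92.99, 85.85 and 95.08 CPM (log2 -0.59, adjusted p = 1.26e-04). Among the accessory genes, Ndufa5 went from 271.1, 279.6 and 292.4 CPM to 143.2, 129 and 142.6 CPM (log2 -1.02 ± 0.07, adjusted p = 3.65e-06). Ndufa9, which sits where the matrix arm meets the membrane, went from 391.9, 439 and 401.7 to 259.2, 236 and 257.1 CPM (log2 -0.71, adjusted p = 4.62e-05). The mutant hearts of both genes lay below all control hearts.

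The proximal membrane arm held both a very large and a very small change. Over its 9 genes the median was -0.64. Ndufa1, a small X-linked subunit needed early in assembly, was at 182.6, 196.3 and 200.5 CPM in control and 90.9, 86.6 and 85.1 CPM in mutant hearts, a 2.21-fold fall and the smallest adjusted p of the set (log2 -1.14 ± 0.06, adjusted p = 1.60e-06). It has identifier ENSMUSG00000016427 and lies on chromosome X from 37187588 to 37191163 (mm10, minus strand) with 3 exons. Ndufc2, at the other end, was at 114.4, 120.7 and 119.4 CPM in control and 97.4, 86.9 and 105.9 CPM in mutant hearts (log2 -0.29 ± 0.08, adjusted p = 0.0151). Its groups did not overlap, but its call was lost without control heart 2 (adjusted p = 0.0577), without mutant heart 2 (adjusted p = 0.0627) and with library totals alone, where its log2 fold change was -0.00. The remaining genes were Ndufa3 (-0.83), Ndufc1 (-0.76), Ndufa13 (-0.72), Ndufs5 (-0.64), Ndufa10 (-0.63), Ndufa8 (-0.55) and Ndufa11 (-0.53). Ndufa13, also known as GRIM-19, and Ndufa11, which lies at contacts with complex III, belong to this arm.

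The distal membrane arm, the tip of the proton-pumping part, was represented by 10 genes in a narrower range, from -0.88 to -0.54. Ndufb10 was at 437.7, 472.1 and 448.3 CPM in control and 244.9, 224.7 and 268 CPM in mutant hearts (log2 -0.88 ± 0.08, adjusted p = 2.21e-05). Ndufb6 was at 78.1, 83.4 and 76.6 CPM against 54.7, 51.6 and 57.3 CPM (log2 -0.54, adjusted p = 1.91e-04). Between these were Ndufb8 (-0.79), Ndufb9 (-0.78), Ndufb7 (-0.77), Ndufb11 (-0.70), Ndufb3 (-0.65), Ndufb5 (-0.58), Ndufb2 (-0.58) and Ndufb4 (-0.54). Ndufb4, the member with the lowest CPM (10.4 ± 0.857 against 7.11 ± 0.442), lost its call with library totals alone (log2 -0.26, adjusted p = 0.0534).

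Ndufab1 and Ndufa4 stand outside these modules. Ndufab1, the mitochondrial acyl carrier protein, also serves lipoic acid synthesis and iron-sulfur cluster assembly and is found at more than 1 place in the complex. It was at 61.0, 60.7 and 62.9 CPM in control and 53.0, 51.2 and 54.4 CPM in mutant hearts, the smallest fall of the set (log2 -0.22 ± 0.06, adjusted p = 0.0153). The groups were separate, yet the direction turned with library totals alone (log2 0.07, adjusted p = 0.369), and without mutant heart 2 the adjusted p was 0.0774. Ndufa4, the complex IV subunit, went from 705.6, 719.3 and 719.7 to 451.2, 406.8 and 432.7 CPM (log2 -0.73, adjusted p = 2.17e-05). Differences between modules were not tested. By medians, the 6 core genes were at -0.64 and the 29 accessory genes at -0.71.

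**Figure D2:**
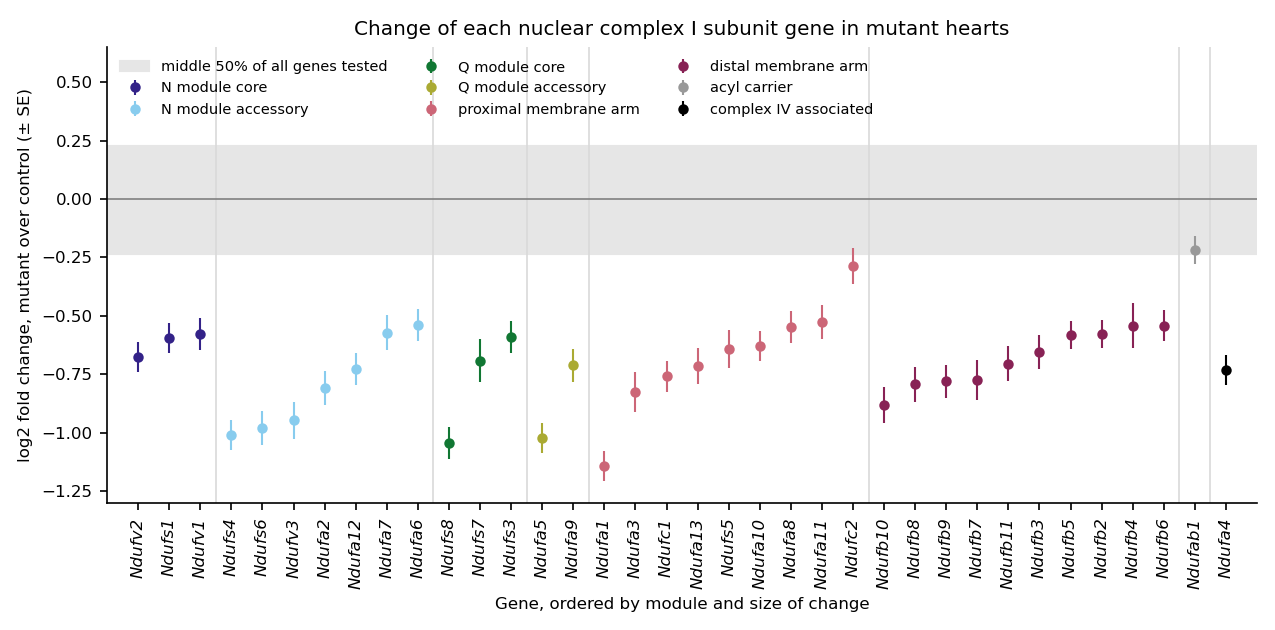
Log2 fold change (mutant over control, with SE) of each of the 36 genes from the edgeR fit, ordered by module. All points lie below zero, between -1.14 for Ndufa1 and -0.22 for Ndufab1, and all but Ndufc2 and Ndufab1 lie at or below -0.53.

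To ask whether the genes kept their proportions, each member's CPM was divided in each heart by the geometric mean of the other 35, and the log2 of this ratio was compared between groups. The groups overlapped for 17 members and did not for 19, of which 8 were lower and 11 higher against the rest in mutant hearts. All genes together offer no background for this ratio, since its reference is the set itself, so the count is a description. Ndufa1 dropped most against the rest, from 0.03, 0.02 and 0.11 in control hearts to -0.36, -0.32 and -0.50 in mutant hearts, a difference of -0.45. Ndufs8 (-0.35), Ndufa5 (-0.33), Ndufs4 (-0.32), Ndufs6 (-0.28), Ndufv3 (-0.25), Ndufb10 (-0.18) and Ndufa2 (-0.11) were also lower against the rest in every mutant heart. These 8 genes come from all 4 parts of the complex. At the other end, the ratio of Ndufab1 went from -1.64 ± 0.07 to -1.14 ± 0.03 (SD, n = 3) and that of Ndufc2 from -0.68 ± 0.02 to -0.25 ± 0.07, so both took up a larger share of the set in mutant hearts. The other 9 with higher ratios were Ndufa11 (0.18), Ndufa6 (0.17), Ndufb6 (0.17), Ndufa8 (0.16), Ndufa7 (0.14), Ndufv1 (0.13), Ndufb5 (0.13), Ndufs3 (0.12) and Ndufa10 (0.08). The exact two-sided permutation test gave p = 0.1 for each of the 19, the smallest value that 3 against 3 hearts allow, so none could pass 0.05. This ratio does not depend on the scaling of the libraries.

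**Figure D3:**
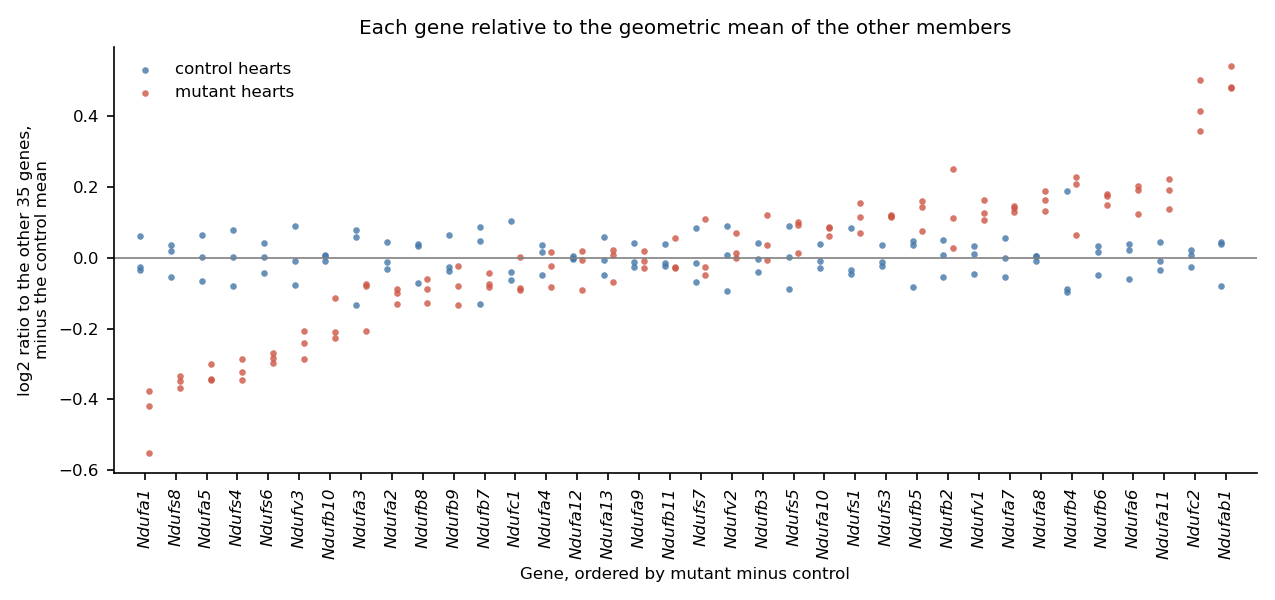
Log2 ratio of each member to the geometric mean of the other 35 in each heart, minus the mean of the control hearts, for all 36 genes. The mean of the mutant points is lowest for Ndufa1, at -0.45, and highest for Ndufc2 and Ndufab1, at 0.42 and 0.50.

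Levels between genes were compared per kilobase of the principal transcript. The median over members was 269.5 CPM per kb in control and 161.6 CPM per kb in mutant hearts. Ndufa4 was highest at 1172 and 705.3 CPM per kb, followed by Ndufb9 at 778.2 and 452.9 and Ndufb10 at 618.5 and 335.9. Ndufb2 was lowest at 10.6 and 7.08, below Ndufb4, Ndufab1 and Ndufs5. Ndufb2 and Ndufab1 were divided by the longest principal transcripts of the set, 4371 and 3479 bases, so their low places depend on these lengths. The order was nearly the same in both groups (Spearman's rho 0.962 over 36 members, which share the libraries and the gene lengths). The largest shifts in rank, from control to mutant hearts, were those of Ndufa5 (11 to 19), Ndufs6 (17 to 23), Ndufa6 (12 to 6) and Ndufa11 (13 to 7). The size of the change had weak correlations with the control level per kb (rho -0.36), the transcript length (rho 0.14) and the number of exons (rho -0.03), given as descriptions over 36 genes. The order of levels also depends on the length used, since several members have long alternative exons. With the gene length implied by the authors' RPKM values, Ndufb9 came first at 837.1 CPM per kb in control hearts and Ndufa4 second at 514.9.

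Some counts are less certain than the replicate spread shows. The library kit does not mark strand, and 13 members have exons that lie across those of an antisense gene. The overlap exceeded 10% of exon bases in Ndufb6 (39%), Ndufa13 (29.98%), Ndufb11 (12.89%), Ndufb5 (12.33%) and Ndufa2 (11.54%). The other 23 members, without any such overlap, were all called lower with a median of -0.73. In 7 members over 20% of the 50-base stretches of the transcript recur in transcripts of another gene. For Ndufb6 (34.1%, with Smim27) and Ndufb9 (23.4%, with Gm49356) that gene overlaps the member at its own locus. For Ndufs3 (39.7%) and Ndufa13 (28.5%) the genes are the overlapping Kbtbd4 and Tssk6 and processed pseudogenes elsewhere. For Ndufb4 (37%), Ndufs5 (31.1%) and Ndufa12 (26.2%) they are processed pseudogenes on other chromosomes, whose part in the low counts of Ndufb4 and Ndufs5 was not tested.

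The searched motifs were read on both strands of 300-base windows, 250 before and 50 after each start, in 33 members, 11268 other tested genes and 32851 windows of all genes in the table. The NRF1 core (GCGCA, any base, GCGC) was found in 21.2% of the members, 10.5% of other tested genes and 4.6% of all windows. The 7 members with it were Ndufa5, Ndufa6, Ndufa8, Ndufa11, Ndufb4, Ndufs5 and Ndufs6. The long site of YY1 (AAGATGGCG) was found in 15.2% of members, namely Ndufa9, Ndufc1, Ndufs4, Ndufs6 and Ndufs7, in 3.18% of other tested genes and in 1.4% of all windows. AGGTCA, the core of many nuclear receptor sites, was found in 21.2% of members, 14.8% of other tested genes and 16.3% of all windows.

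Other motifs differed in either direction. A direct repeat of AGGTCA with a gap of 4 bases, the textbook form of a thyroid hormone receptor site, matched 0 member windows, 0% of other tested genes and 0.0152% of all windows. TCAAGGTCA, the site of estrogen-related receptors, matched no member window, 0.328% of other tested genes and 0.423% of all windows. The GC box GGGCGG, marked in 3 of the printed sequences, was found in 45.5% of members, 66.6% of other tested genes and 35.7% of all windows. The ETS core CCGGAAG was found in 12.1% of members, 18.6% of other tested genes and 8.86% of all windows, and the cyclic AMP response element TGACGTCA in 9.09%, 3.42% and 1.79%. Of the motifs searched, TCAAGGTCA and the direct repeat contain AGGTCA, so each match to them is also a match to it. The median GC content was 59% in member windows and 60.7% in those of other tested genes. A match is a run of letters and not a measured binding site, and none of these differences was tested.

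Some of these genes start back to back with another protein-coding gene. How common this is among all genes was not counted. Of the 36 members, 16 had such a partner on the opposite strand with a start within 1000 bases, and 15 of the partners were tested. Of these partners 3 were called lower (Mrpl36, Asb15 and Mrpl47), 1 higher (Vmac) and 11 neither way, to be read against the 19.5% of all genes called lower. The median log2 fold change was -0.08 for the partners and -0.72 for the members beside them.

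Ndufv3 and Wdr4, which encodes part of a tRNA methyltransferase, start 135 bases apart within the window printed above. Wdr4 was at 18.26, 19.57 and 18.22 CPM in control and 19.01, 18.45 and 19.32 CPM in mutant hearts (log2 0.02, adjusted p = 0.857), while Ndufv3 was 1.93-fold lower. The ratio of Ndufv3 to Wdr4 was 12, 13.5 and 13.0 in control hearts and 6.84, 6.39 and 6.54 in mutant hearts. Ndufs1 and Eef1b2, a translation elongation factor gene, overlap at their starts by 9 bases, and Eef1b2 was at 119.8, 121.6 and 126.3 CPM against 127.1, 121 and 125.8 CPM (log2 0.02, adjusted p = 0.769). In 13 of 15 pairs the ratio of member to partner was lower in every mutant heart than in every control heart, which held for 27.5% of 1911 other tested genes with a tested partner of this kind. The exceptions were Ndufa5 with Asb15, which itself fell, and Ndufb3 with Fam126b. The member of each pair was itself lower in every mutant heart, so a high count was likely unless the partners fell too. The 1911 genes were not chosen to match this. Tssk6, the partner of Ndufa13, was at only 0.122 to 0.275 CPM. The pairs were chosen from the annotation, and reads from spans that both genes share cannot be told apart. Such spans reached 616 bases for Ndufb5 and Mrpl47, 375 for Ndufa13 and Tssk6 and 256 for Ndufa11 and Vmac. The difference within pairs was not tested beyond this count.

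**Figure D4:**
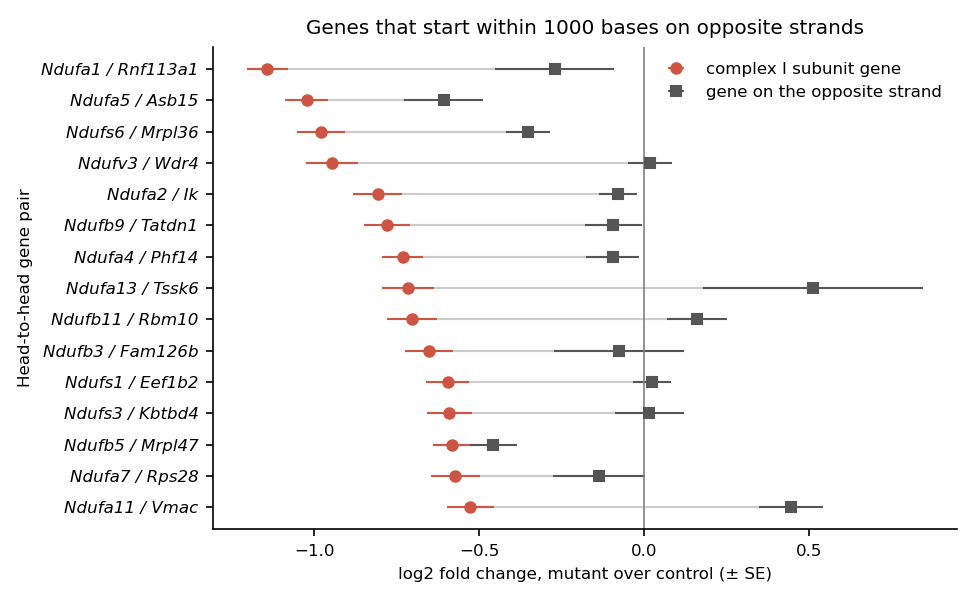
Log2 fold change (mutant over control, with SE) of 15 complex I genes (circles) and of the protein-coding gene that starts within 1000 bases on the opposite strand (squares). Every circle lies left of its square, and the squares centre near zero with a median of -0.08.

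The other genes that make or serve complex I were taken as lists. All 5 listed mitochondrially encoded subunits were called lower, with a median log2 fold change of -0.67. Their values were -0.55 for mt-Nd1, -0.91 for mt-Nd2, -0.82 for mt-Nd4, -0.67 for mt-Nd5 and -0.67 for mt-Nd6. The summed CPM of these 5 was 15.4, 12.6 and 14.8 times that of the 36 nuclear genes in control hearts and 15.1, 15.3 and 12.5 times in mutant hearts, so the groups overlapped. On the log2(RPKM + 0.1) scale without a filter, limma called none of the 5 lower.

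Of 20 tested assembly factors, which build the complex and are not part of it, 15 were called lower and 0 higher, with a median of -0.31. Ecsit went from 69.7 ± 5.67 to 43.7 ± 1.97 CPM (log2 -0.67), Ndufaf1 from 37.6 ± 2.09 to 24.8 ± 1.46 CPM (log2 -0.60) and Foxred1 from 109.7 ± 4.64 to 83.4 ± 3.87 CPM (log2 -0.39). Lyrm2 (0.12), Dmac2 (-0.06), Ndufaf2 (-0.14), Ndufaf5 (-0.21) and Ndufaf8 (-0.22) did not pass the test. The count fell to 2 of 20 with library totals alone, where 8.11% of all genes were called lower, and to 8 without mutant heart 2. Of 17 genes for iron-sulfur cluster assembly, 10 were called lower and 1 higher, with a median of -0.29. Bola3, which helps to deliver clusters, went from 61.1 ± 3.01 to 31.6 ± 0.823 CPM (log2 -0.95), and Glrx5 fell by 0.69 and Hspa9 by 0.49 on the log2 scale. The count of genes called lower was 4 with library totals alone. The 1 called higher was Iba57 (log2 0.22, adjusted p = 0.0494), and it lost its call when any single heart was left out.

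The enzymes on either side of complex I had medians near that of the members. Of 19 tested dehydrogenases and shuttles, most of which make or carry NADH while Etfdh and Gpd2 pass electrons to ubiquinone by way of FAD, 18 were called lower with a median of -0.66, among them Got1 of the malate-aspartate shuttle (-1.26), its partner carrier Slc25a13 (-1.11) and Pdhb of pyruvate dehydrogenase (-1.04), while Hadha, a fatty acid oxidation enzyme, was at -0.16 and did not pass. All 4 complex II genes (median -0.53) and all 9 complex III genes (median -0.68) were called lower, as were 14 of 16 genes of ATP synthase (median -0.66) and 9 of 15 of complex IV (median -0.65). Cox7a1, the muscle form of a complex IV subunit, had a log2 fold change of -1.67, a larger fall than that of any of the 36 genes. Ndufa4l2, a paralogue of Ndufa4, was at 17.36, 19.56 and 18.95 CPM against 15.32, 15.91 and 15.85 CPM (log2 -0.25, adjusted p = 0.0244), and its call was lost with library totals alone and when any heart but control heart 1 was left out. No test set the complex I genes against these lists, and the values do not show that they differ.

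**Figure D5:**
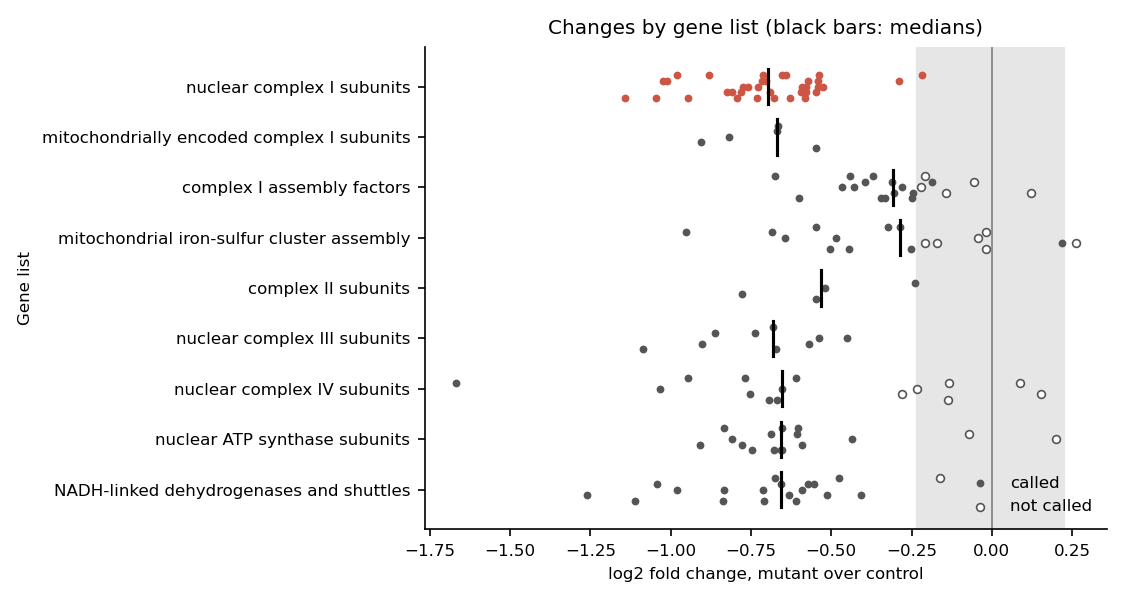
Log2 fold change (mutant over control) of every tested gene in the complex I set and in 8 related lists, with filled points for called genes, a black bar at each median and a grey band for the middle 50% of all tested genes. The complex I set (-0.70), complex III (-0.68) and ATP synthase (-0.66) have similar medians, and assembly factors (-0.31) and iron-sulfur assembly (-0.29) lie nearer zero.

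Markers of the cell types in the heart were set beside these changes. Of 12 heart muscle markers, 5 were called lower (Mb, Tcap, Myl3, Tnnc1 and Actc1), 0 higher, and the median was -0.10. Their summed CPM was 45834 to 51510 in control and 37059 to 38292 in mutant hearts. As a share of all counts, with no scaling, the groups overlapped. The markers made up 4.15%, 4.67% and 4.38% of control and 4.14%, 4.10% and 4.30% of mutant libraries. The geometric mean of the 36 complex I genes was 0.0915, 0.0871 and 0.0891 times that of the 12 markers in control hearts and 0.0730, 0.0677 and 0.0713 times in mutant hearts, without overlap.

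Of 8 fibroblast markers 3 were called higher (summed CPM 2634 to 2976 in control and 3016 to 3378 in mutant hearts), of 8 endothelial markers 5 were called lower (1561 to 1682 against 1333 to 1437), and of 8 markers of smooth muscle and pericytes 3 were called lower and 1 higher (2363 to 2591 against 2114 to 2215). Of 8 macrophage markers 6 were called lower (113.4 to 123.7 against 72.5 to 75.8). None of 6 tested red blood cell markers was called (157.8 to 245.1 against 91.4 to 243.1). The lists for fat (23.3 to 31.0 against 27.2 to 29.9), skeletal muscle (3.90 to 4.80 against 2.41 to 2.80) and thymus lymphocytes (0.568 to 0.630 against 0.275 to 0.572) were low in both groups, and of the fat list only Cidea passed the filter. Of 4 tested skeletal muscle markers, Tnni2 was called lower (log2 -1.70, adjusted p = 1.03e-04), and no fat or thymus marker was called. As shares of all counts, with no scaling, the endothelial groups overlapped (0.1413% to 0.1526% in control and 0.1443% to 0.1589% in mutant libraries). The smooth muscle and pericyte share was higher in every mutant library (0.2375% to 0.2409%) than in every control library (0.2139% to 0.2346%). The macrophage share stayed lower (0.01026% to 0.0112% against 0.008025% to 0.008323%). The fibroblast share stayed higher (0.2383% to 0.2694% against 0.3263% to 0.3737%). The part of cell composition in the fall of the complex I genes was not tested.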

How the data were processed

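RNA of 6 whole hearts was measured. The authors deposited raw counts by Ensembl identifier and RPKM values, which divide counts by gene length and library total. The tools named in the submitters' processing notes are STAR 2.5.2b, featureCounts 1.5.1 and cutadapt 1.9, with the mm10 build. The sources used here do not give the annotation release, the strand setting or the treatment of reads with several matches.

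Identifiers were matched to GENCODE M21 (20081 of 20121). Counts were filtered with filterByExpr (5244 genes removed), scaled by TMM and tested with edgeR 4.0.16 in R 4.3.3 (quasi-likelihood F test, group as the only term, Benjamini-Hochberg over 14877 genes, threshold 0.05). CPM uses TMM-scaled library sizes. Each SE is the log2 fold change over the square root of F, an approximation. The fit was tested on simulated data. Alternatives were DESeq2 1.42.0, library totals alone, other filters, a replicate block, leaving out each heart, and limma 3.58.1 on log2(RPKM + 0.1) and log2(RPKM + 1).

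The members and lists were chosen with earlier results of these data known. Values per heart were given for the 8 members with the smallest adjusted p, the largest and smallest change in each module, Ndufab1 and Ndufa4. Wdr4 and Eef1b2 were chosen after their values were seen. Each heart came from its own pup, and p-values cover the spread among the 6 hearts alone.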

Additional observations from a re-analysis of the deposited data

How the results depend on the processing

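All 36 members were called lower with DESeq2, with its size factors in edgeR, with no filter and with a filter at a mean CPM of 1. Leaving out a heart gave 34 to 36. The count was 33 with library totals alone, 33 on log2(RPKM + 0.1), 33 on log2(RPKM + 1), and 34 on log2(RPKM + 1) with a mean RPKM of at least 0.5. In the same order the members' median was -0.41, -0.42, -0.41 and -0.41, and Ndufab1 turned to 0.0669, 0.0639, 0.0577 and 0.0577. The all-gene median was 0.28, 0.20 and 0.09 in the first 3. Among members without overlap on the opposite strand, 23 of 23 were called lower.

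With library totals alone, on log2(RPKM + 0.1), on log2(RPKM + 1) with a mean RPKM of at least 0.5, and on log2(RPKM + 1), all genes called lower were 1207, 1188, 1083 and 1170, and higher 7479, 6947, 6595 and 6916, against 2898 and 2688. In that order, assembly factors called lower were 2 each and higher 2, 1, 2 and 1. Iron-sulfur genes called lower were 4, 5, 6 and 5 and higher 4, 3, 4 and 3. Complex IV genes called higher were 1, 2, 2 and 2, and ATP synthase genes 1 each. Ndufa4l2 was called in none of them (0), and mitochondrially encoded subunits in neither unfiltered RPKM setting (0 of 5). The cause was not tested.

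Iba57 was the iron-sulfur gene called higher, and 0 were with DESeq2, with no filter, with the replicate block or without any heart. Leaving out a heart gave 8 to 15 assembly factors and 0 to 1 paralogues called lower.

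Deviations from the group means had correlations of 0.15, -0.05 and 0.10 between control and mutant hearts with the same replicate number. Between hearts with different numbers they were -0.18 to 0.09. All were weak, and whether replicate numbers pair the hearts was not tested beyond this. With the replicate block, 36 of 36 members were called lower, with a median of -0.70.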
